A study of Mus musculus with 48 samples.

Results

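The genes described are the collagen chains, the laminin chains, the integrin α and β subunits, and 4 further basement membrane genes, Sparc, Nid1, Nid2 and Hspg2. They were selected by a rule on gene symbols and came to 84 of 23284 gene symbols: 43 collagen chains, 11 laminin chains, 18 integrin α subunits, 8 integrin β subunits and the 4 others. RNA was sequenced from 48 single mouse cells derived from 129P2/OlaHsd embryonic stem cells that carry a doxycycline-inducible Mesp1, a transcription factor of early mesoderm. The stem cells were grown as embryoid bodies, which are floating aggregates that differentiate. Doxycycline at 500 ng/ml was present between days 2.25 and 3.25, and on day 4 the live, propidium iodide-negative cells were sorted and captured on a Fluidigm C1 device. All 48 cells had the same induction, no uninduced cells were analysed here, and the labels name no separate cultures. The cells were therefore treated as 1 sample, and what follows is a description of how these cells differ from each other, with no test between conditions.

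A basement membrane is a thin sheet of extracellular matrix. Laminin, a trimer of an α, a β and a γ chain, polymerises on the cell surface, collagen IV forms a second network built from trimers of its own chains, and nidogens and the proteoglycan perlecan link them. Integrins are receptors made of 1 α and 1 β subunit, and the pair decides the ligand: some bind laminin, some bind collagen, and some bind the RGD tripeptide of fibronectin and vitronectin. In the gastrulating embryo, cells that become mesoderm leave an epithelium that rests on a basement membrane and move through a matrix rich in fibronectin.

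The values are FPKM, fragments scaled to transcript length and to the mapped fragments of the cell, and so are levels per length. A gene was counted as detected in a cell at 1 FPKM or more. For 48 of the 84 genes the smallest steps between values gave the worth of a single fragment, and 1 FPKM then stood for 4.08 to 42.1 fragments, with a median of 16.2. Fragments are copies of amplified cDNA and not molecules. Relative depth per cell was estimated from ratios of low values between cells over 2415 genes. It lay between 0.778 and 1.21 with a median of 1.02. The steps were read after values were multiplied by this depth, so the fragment numbers depend on it. Between 4788 and 7010 genes were detected per cell (median 6212), with a median of 6506 in the 25 cells whose label numbers ran up to 48 and 5711 in the 23 cells with higher numbers. The labels do not say what the numbers mean, and values for both sets of cells are given beside correlations and some counts. The labelled cell type is Mesp1-induced mesoderm. Of 13 genes on a cardiac and lateral mesoderm list, 8 were detected in at least 12 cells, among them Gata6 and Gata4 in 33 cells each and Pdgfra in 31, while Nkx2-5 was listed at 0 throughout. Genes of earlier states were detected as widely: 12 of 14 primitive streak genes reached that count, among them Eomes in 35 cells and Mesp1 in 30, and 9 of 12 pluripotency genes, among them Lin28a in 48 cells and Nanog in 46. Of 12 epithelial genes 5 did, with Krt8 in 33 cells. Over all symbols 8347 of 23284 reached it. Of 12 mesenchymal genes 7 were detected in at least 12 cells, and the list's summed level lay between 33.6 and 1140 FPKM with a median of 226 FPKM.

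Few of the 84 genes were in wide use in these cells. At 1 FPKM, 15 of 84 (17.9%) were detected in at least 12 of the 48 cells, against 35.8% of all 23284 symbols. A further 37 were detected in 1 to 11 cells, and 32 (38.1%) reached 1 FPKM in no cell, against 39.7% of all symbols. The 15 were 4 of 43 collagen chains (Col4a1, Col4a2, Col18a1 and Col23a1), 2 of 11 laminin chains (Lamb1 and Lamc1), 5 of 18 integrin α subunits (Itgav, Itga5, Itga6, Itga8 and Itga9), 2 of 8 integrin β subunits (Itgb1 and Itgb5), and Sparc and Nid2. No member was detected in all 48 cells, as 1161 symbols were. Of the 32 below 1 FPKM, 26 had a value above 0 in some cell and 6 were listed at 0 throughout: Col28a1, Col5a3, Col6a6, Itgad, Itgal and Itgax. Across the 84 members, the number of cells with detection and the length of the longest annotated transcript had a Spearman rho of -0.09, a correlation across genes, which are not independent replicates.

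**Figure D1:**
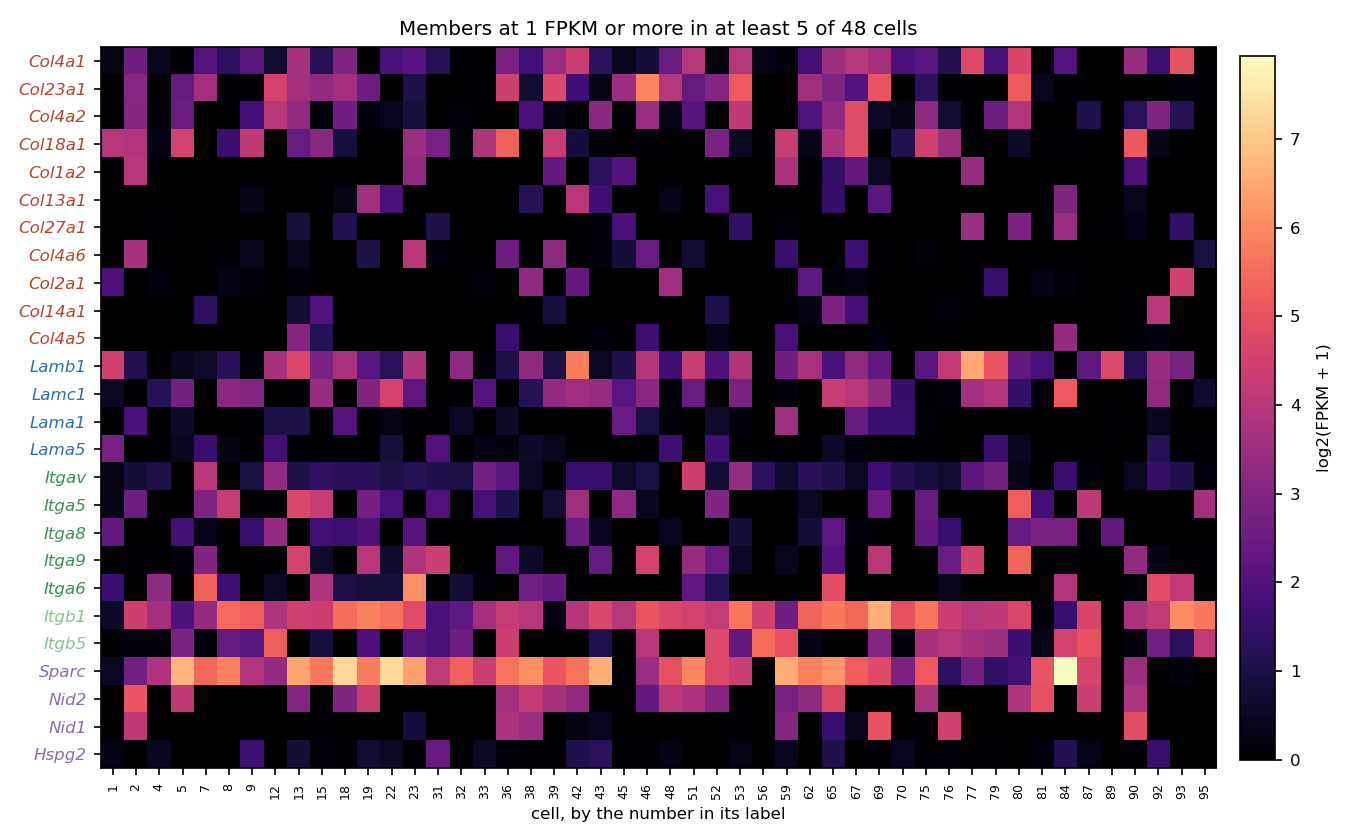
FPKM of the collagen, laminin, integrin and other basement membrane genes detected most widely, 1 row per gene and 1 column per cell, with colour on a log2(FPKM + 1) scale. Itgb1 and Sparc are filled across most of the 48 cells, while most other genes are blank in many cells.

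**Figure D2:**
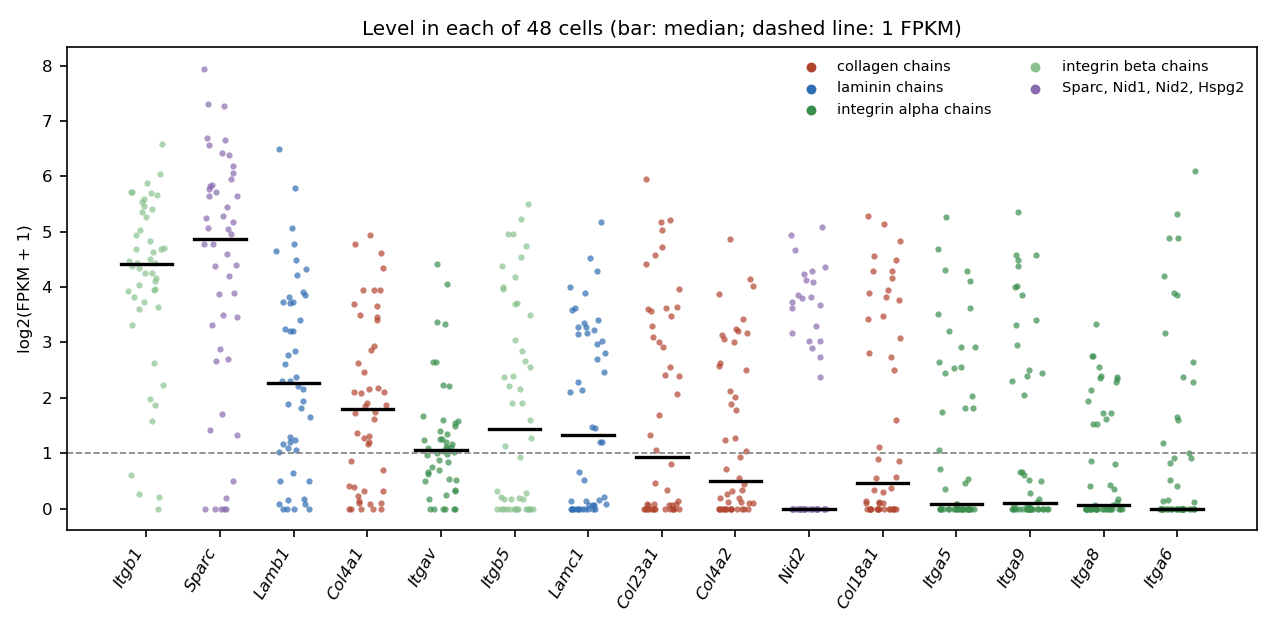
Level of the most widely detected members in each of the 48 cells, on a log2(FPKM + 1) axis, with 1 point per cell and a bar at the median. Medians for Itgb1 and Sparc, at 20.3 and 28.3 FPKM, stand above those of all other members plotted.

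Collagen IV was the most widely detected collagen. Col4a1, whose product supplies 2 of the 3 chains of the common collagen IV trimer, lay between 0 and 29.8 FPKM with a median of 2.48 FPKM and was detected in 32 of 48 cells. Col4a2, whose product supplies the remaining chain, lay between 0 and 28.2 FPKM with a median of 0.417 FPKM and was detected in 21 cells. Both were detected in 17 cells (35.4%, exact 95% interval 22.2 to 50.5%), Col4a1 without Col4a2 in 15, Col4a2 without Col4a1 in 4 and neither in 12. Col4a1 was thus seen without its partner more often than Col4a2 was, and it had the higher level in 30 cells, against 15 cells with more Col4a2 and 3 with equal values. Intervals here and below are Clopper-Pearson intervals over cells and cover counting error only. The pair was found in 6 of 25 cells with numbers up to 48 and in 11 of 23 with higher numbers.

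Col4a1 and Col4a2 lie head to head on chromosome 8, so their start regions are shown with that of Itgb1, the member whose level followed Col4a2 most closely from cell to cell. The windows are RefSeq promoters on build GRCm38.p6, each with 250 bases before the gene's start and 50 after it, written 5′ to 3′ on the gene's own strand. They cover chr8:11312777-11313076 on the minus strand for Col4a1, chr8:11312555-11312854 on the plus strand for Col4a2 and chr8:128685404-128685703 on the plus strand for Itgb1. Capitals mark the 78 bases that the Col4a1 and Col4a2 windows share, which read as reverse complements of each other.
Col4a1: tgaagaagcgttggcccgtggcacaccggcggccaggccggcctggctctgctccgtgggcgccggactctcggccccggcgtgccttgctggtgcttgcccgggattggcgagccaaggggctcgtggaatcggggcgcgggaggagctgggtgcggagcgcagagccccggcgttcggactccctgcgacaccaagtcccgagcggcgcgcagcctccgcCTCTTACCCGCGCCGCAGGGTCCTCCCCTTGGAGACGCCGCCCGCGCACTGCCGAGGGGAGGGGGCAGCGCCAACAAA
Col4a2: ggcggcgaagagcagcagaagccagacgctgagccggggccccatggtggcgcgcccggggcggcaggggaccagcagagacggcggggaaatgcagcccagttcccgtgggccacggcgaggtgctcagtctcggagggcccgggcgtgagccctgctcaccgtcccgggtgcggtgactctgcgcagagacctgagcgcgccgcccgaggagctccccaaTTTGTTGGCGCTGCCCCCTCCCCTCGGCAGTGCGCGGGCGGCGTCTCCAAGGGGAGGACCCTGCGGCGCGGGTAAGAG
Itgb1: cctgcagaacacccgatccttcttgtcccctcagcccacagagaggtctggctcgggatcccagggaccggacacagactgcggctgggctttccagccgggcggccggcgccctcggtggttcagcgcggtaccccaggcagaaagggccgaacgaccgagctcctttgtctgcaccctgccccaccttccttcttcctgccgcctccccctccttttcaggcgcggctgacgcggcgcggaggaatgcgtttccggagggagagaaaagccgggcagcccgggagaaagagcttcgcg
The start sites, at 11312826 for Col4a1 and 11312805 for Col4a2, put the first 22 bases of each gene over the other. Whether the counting used strand is not given in the sources used here, so fragments in those 22 bases could have been given to either gene. The GC box letters GGGCGG, searched on both strands, occurred 1 time in the Col4a1 window, 3 times in the Col4a2 window and 1 time in the Itgb1 window, and in 35.9% of all 27025 RefSeq mouse promoters. The Col4a1 match lies in the shared 78 bases and is the same site as 1 of the 3 in the Col4a2 window. The letters CCAAT occurred 1 time in each collagen window and not in the Itgb1 window, against 37.9% of all promoters, and TATAAA in none of the 3, against 14.2%. Among the 61 members with a RefSeq promoter, 35 (57.4%) held a GC box, 16 (26.2%) held CCAAT and 5 (8.20%) held TATAAA. These matches describe letters only, and base composition was not matched between the members and all promoters.

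The other collagen IV chains were rare. Col4a5 and Col4a6, which form a trimer of their own in some basement membranes, were detected in 6 and 8 cells and together in 3. Col4a3 and Col4a4, chains of the mature kidney glomerulus, reached 1 FPKM in no cell.

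Laminin β1 and γ1 chains were detected far more widely than any α chain. Lamb1, the β1 chain, lay between 0 and 89.4 FPKM with a median of 3.79 FPKM and was detected in 37 cells. Lamc1, the γ1 chain shared by most laminins, lay between 0 and 34.99 FPKM with a median of 1.53 FPKM and was detected in 26 cells. Either was detected in 44 cells and both in 19. The α chains carry the main cell-binding domains, and Lama1, the α chain of the early embryo, lay between 0 and 10.5 FPKM with a median of 0 and was detected in 9 cells. Lama5, the α chain that later becomes widespread, lay between 0 and 5.71 FPKM with a median of 0 and was detected in 8 cells. Only 1 cell had both Lama1 and Lama5, and any laminin α chain was detected in 17 cells. Lama4, typical of vessel walls, was detected in 2 cells, and Lama2 and Lama3, known from muscle and from skin, in none. Lamb2 was detected in 3 cells and Lamb3 and Lamc3 in 1 cell each.

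Complete laminin trimers were accordingly rare within single cells. The chains of laminin-111 (Lama1, Lamb1 and Lamc1) were all detected in 3 of 48 cells (6.25%, interval 1.31 to 17.2%), those of laminin-511 in 2, and those of laminin-411 and laminin-121 in 1 each. Of the 19 cells with both Lamb1 and Lamc1, 13 had no α chain at 1 FPKM and 6 had one. Conversely, 11 cells had an α chain without both partners. The α chain transcripts are long, so 1 FPKM stood for 29.9 fragments of Lama1 and 33.6 of Lama5, against 16.4 of Lamb1 and 20.7 of Lamc1. At 0.1 FPKM the laminin-111 chains were together in 20.8% of cells and the laminin-511 chains in 27.1%, so the rarity of trimers depends on the threshold.

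Of the linkers, Nid2 was either well detected or listed at 0. It lay between 0 and 32.9 FPKM with a median of 0; 27 cells were listed at 0, and the lowest value above 0 was 4.22 FPKM. Nid1 lay between 0 and 30.9 FPKM with a median of 0 and was detected in 8 cells. Either nidogen was detected in 23 cells and both in 6. Hspg2, which encodes perlecan, lay between 0 and 4.40 FPKM with a median of 0.0684 FPKM. It was above 0 in 35 cells but detected at 1 FPKM in only 7.

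Sparc, a secreted glycoprotein that binds collagens including collagen IV, was the most abundant of these genes. It lay between 0 and 245 FPKM with a median of 28.3 FPKM and was detected in 41 cells (85.4%, interval 72.2 to 93.9%). Cell C84 was highest, followed by C22 with 157 and C18 with 153 FPKM, and 5 cells were listed at 0. Sparc made up a median of 50.8% of the summed FPKM of 10 basement membrane genes (Col4a1, Col4a2, Lama1, Lama5, Lamb1, Lamc1, Nid1, Nid2, Hspg2 and Sparc). That share was 64.5% in the cells numbered up to 48 and 31.4% in those above, and over the 48 cells it had a rho of 0.54 with the number of genes detected. Sparc's own level had a rho of 0.46 with the number of genes detected (0.17 in the lower and 0.55 in the higher numbers) and -0.36 with the cell number. The part of either in the spread of Sparc was not tested.

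No cell had every component of a basement membrane at 1 FPKM. Cells had 0 to 8 of the 10 components with a median of 4.5, and cells C56 and C95 had 0. Collagen IV together with a complete laminin-111 or laminin-511 was found in 3 cells, and no cell also had a nidogen, a count of 0 that allows a share of up to 6.25% by the rule of 3 counts in 48 cells and up to 7.40% by the Clopper-Pearson interval. Without the demand for an α chain, 4 cells had Col4a1, Col4a2, Lamb1, Lamc1 and a nidogen. The full set of collagen IV, laminin-111 or laminin-511, a nidogen and perlecan was found in 0 cells at 1 FPKM and in 11 cells when any value above 0 was counted. These counts follow the single detection rates, since a set needs all its chains at once. Hspg2 alone was at 1 FPKM in only 7 cells. The counts are therefore no result about how the components go together. Sparc stood beside Col4a1 in 30 cells and beside both collagen IV chains in 15.

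**Figure D3:**
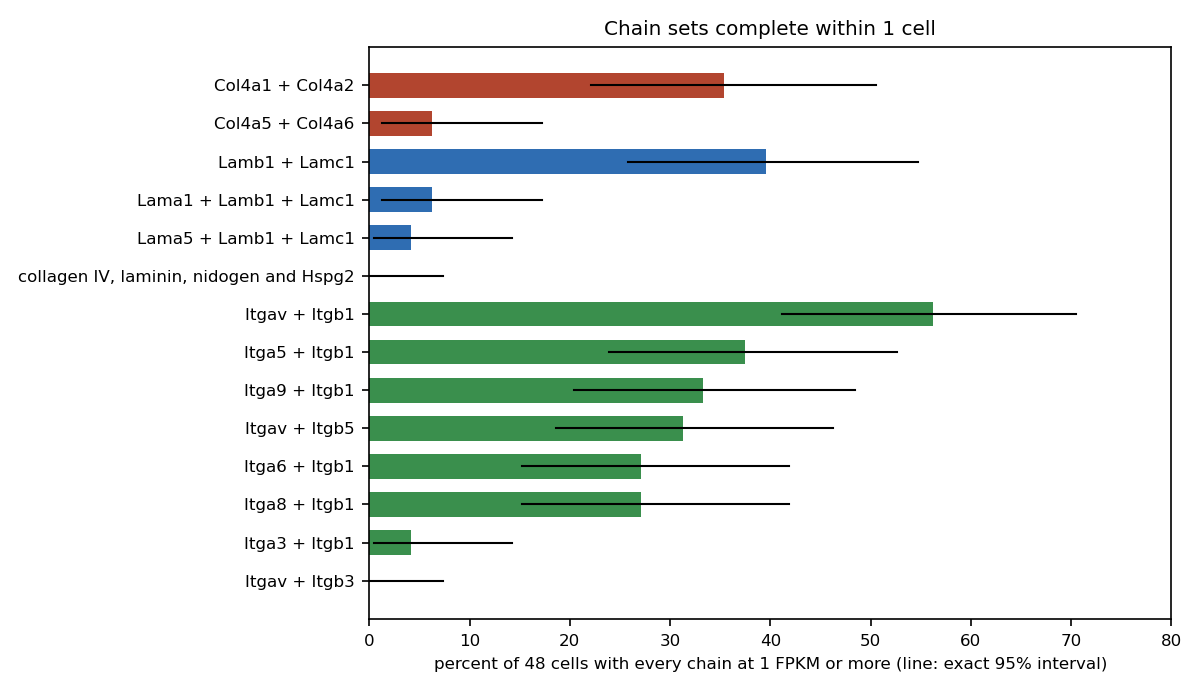
Percent of the 48 cells (horizontal axis) in which every chain of a set was at 1 FPKM or more, for basement membrane sets and integrin pairs, with exact 95% intervals. The integrin αv and β1 pair, at 56.3% of cells, is the highest integrin pair, and laminin trimers sit at 6.25% or lower.

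Beyond collagen IV, the widely detected collagens were not those of interstitial fibrils. Col23a1, a transmembrane collagen, lay between 0 and 60.8 FPKM with a median of 0.909 FPKM and was detected in 24 cells. Col18a1, a basement membrane collagen whose C-terminal fragment is endostatin, lay between 0 and 38.04 FPKM with a median of 0.377 FPKM and was detected in 20 cells. Both thus had high values in a minority of cells. The fibrillar chains were scattered: 22 cells had at least 1 of Col1a1, Col1a2, Col2a1, Col3a1, Col5a1, Col5a2 and Col11a1. Col1a2 was detected in 10 cells with a highest value of 14.5 FPKM, Col2a1 of cartilage in 7, Col11a1 and Col5a1 in 4 each and Col1a1 in 2. Col27a1 and Col24a1, also fibrillar but outside that count of 22, were detected in 8 cells and 1 cell. Col3a1 was detected in cell C59 alone, at 11.1 FPKM. Both chains of collagen I were found in 2 cells and both main chains of collagen V in none. Of the remaining chains, Col13a1, another transmembrane collagen, was detected in 9 cells and Col14a1, which associates with fibrils, in 6. Col9a1 was detected in 3 cells, Col6a1, Col6a2 and Col9a3 in 2 each, and Col16a1, Col17a1, Col25a1, Col5a2, Col8a2 and Col9a2 in 1 each. Col6a3, the chain that collagen VI also needs, and Col7a1, the anchoring fibril collagen of skin, reached 1 FPKM in no cell.

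Integrin β1 was the most widely detected of all 84 genes. Itgb1, on chromosome 8 from 128685654 to 128733200 on build GRCm38, encodes the β subunit with the most α partners. It lay between 0 and 94.8 FPKM with a median of 20.3 FPKM and was detected in 44 cells (91.7%, interval 80.02 to 97.7%), with 1 cell listed at 0. Itgb5, which pairs with αv to bind vitronectin, lay between 0 and 44.2 FPKM with a median of 1.72 FPKM and was detected in 26 cells; its rho with the number of genes detected was -0.37. The other β subunits were nearly absent at this threshold. Itgb7 was detected in 2 cells and Itgb2 in 1, both being β subunits of blood cells, and Itgb3, Itgb4, Itgb6 and Itgb8 in none.

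The α subunits were lower and patchier than Itgb1. Itgav, the αv subunit that binds RGD ligands, lay between 0 and 20.4 FPKM with a median of 1.084 FPKM and was detected in 27 cells. Itga5, the α subunit of the main fibronectin receptor, lay between 0 and 37.5 FPKM with a median of 0.0626 FPKM and was detected in 19. Itga6, a laminin-binding subunit, lay between 0 and 67.7 FPKM with a median of 0 and was detected in 15. These show a step down from αv, near 1 FPKM in the typical cell, to subunits that were high in few cells. Itga9, which binds tenascin and other ligands, lay between 0 and 39.9 FPKM with a median of 0.0690 FPKM, and Itga8, an RGD-binding subunit known from kidney development, between 0 and 9.05 FPKM with a median of 0.0445 FPKM. Each was detected in 16 cells. Itga4, which binds fibronectin and VCAM1, was above 0 in 31 cells but at 1 FPKM in only 2. Itga3, another laminin-binding subunit, was detected in 2 cells, and Itga1 and Itga10, which bind collagens, in 1 each. Itga2 and Itga11, also collagen-binding, and Itga7, laminin-binding, reached 1 FPKM in no cell.

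At 1 FPKM, pairs within a cell were mostly pairs of β1 with RGD-binding α subunits. All 27 cells with Itgav also had Itgb1 (56.3% of cells, interval 41.2 to 70.5%). Itgb1 was detected in 44 of the 48 cells, so its pair counts largely follow the detection of each α subunit. The levels of Itgb1 and Itgav had a rho of 0.13. Itgb1 was found with Itga5 in 18 cells, with Itga9 in 16, with Itga6 in 13 and with Itga8 in 13, and Itgav with Itgb5 in 15. Itgb1 stood beside at least 1 of Itgav, Itga5 and Itga8 in 38 cells, beside a laminin-binding α subunit in 14 and beside a collagen-binding α subunit in 2. These counts order the receptor classes by how widely their α subunits were detected at 1 FPKM. They rest on chains with different numbers of fragments at that threshold, 14.5 for Itga5 and 10.6 for Itga6. Itgav lay near the threshold, with a median of 1.63 FPKM in the cells that detected it, and its fragment step could not be read. At 10 FPKM Itgav was in 2 cells, Itga5 in 7 and Itga8 in 0, against Itga6 in 7 and Itga3 in 0. The class counts were taken at 1 FPKM only. Pairs of Itgav with Itgb3, Itgb6 or Itgb8 and of Itga6 with Itgb4, the hemidesmosome receptor, were found in 0 of 48 cells. Cells had 0 to 6 α subunits with a median of 2. There were 16 cells with a single α subunit, 3 with none, and 3 with Itgb1 and no α subunit. Itga5 and Itgav were together in 10 cells, of which 9 had numbers up to 48 and 1 a higher number; Itga6 and Itgav were also together in 10 cells, Itga5 and Itga6 in 4, and all 3 in 2.

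Chains of a ligand and of its receptor were also counted within the same cell. Fn1, which encodes fibronectin and is not a member, had a median of 60.04 FPKM and was detected in 47 cells. It stood beside Itga5 and Itgb1 in 17 cells and beside Itgb1 with any of Itgav, Itga5 and Itga8 in 37. A complete laminin-111 or laminin-511 was found in 5 cells and stood beside a laminin-binding α subunit with Itgb1 in 1. These counts follow the single detection rates, since fibronectin needs 1 transcript and laminin 3 chains at once, so they do not rank the ligands. A receptor can also bind matrix made by a neighbouring cell, which single-cell counts do not show.

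The wider pathway was taken from 5 further gene lists. Of 30 genes that modify or fold collagen, 17 were detected in at least 12 cells, led by Ppib, a prolyl isomerase of the endoplasmic reticulum, in 48, P4hb in 47, Loxl2, a collagen cross-linking oxidase, in 47 and Serpinh1, the collagen chaperone, in 45. Of 26 genes of the integrin adhesion complex 18 were detected in at least 12 cells, with the actin cross-linkers Actn1 and Actn4 in 48, Flna in 47 and the kinase scaffold Ilk in 45. Machinery for making and sensing matrix was thus detected more widely than most chains, beside the 35.8% of all symbols. Of 13 genes for other matrix receptors and surface proteoglycans 7 were detected as widely, with the glypican Gpc3 in 48 cells, the syndecans Sdc4 in 42 and Sdc1 in 37 and Dag1, the dystroglycan gene, in 19. Rpsa, also on that list and in 48 cells, encodes a ribosomal protein as well. Of 32 other matrix genes 7 were, with Fn1 in 47 cells, Fbln1 in 41, Fbn2 in 38 and Vcan in 35. Of 25 proteases and inhibitors 14 were, led by the cathepsin Ctsl in 48 cells, the sheddase Adam10 in 45, Ctsb in 42 and Serpine2 in 33. Further down that list, Mmp2, a gelatinase, was detected in 32 and its activator Mmp14 in 27.

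Only 8 of the 84 members, and no integrin α subunit, had enough signal for a measure of variability between cells. The squared coefficient of variation was set against the trend over 6266 genes; 661 of these (10.5%) lay at least 2-fold above it. The members lay between 0.58-fold for Col4a1 and 1.87-fold for Sparc, with Lamb1 at 1.33-fold and Itgb1 at 0.61-fold. None of the 8 reached 2-fold. Beside 10.5% of all such genes, that count is no result about the members. When short RNAs were left out of the scaling, Sparc came to 2.02-fold.

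Levels of the 15 widely detected members went together only weakly from cell to cell. Over 105 pairs, computed on 48 cells, the median Spearman rho was 0.099 and the range -0.34 to 0.46. Chains of 1 trimer differed: Col4a1 and Col4a2 had a rho of 0.44 (Pearson's r 0.37 on log2(FPKM + 1), 0.45 without the 2 most extreme cells), with 0.18 in cells numbered up to 48 and 0.61 in those above. Lamb1 and Lamc1, in contrast, had a rho of 0.07. The highest rho was between Itgb1 and Col4a2, at 0.46 (r 0.37, 0.33 without 2 cells), with 0.37 and 0.48 in the lower and higher numbers. These 2 pairs were the ones at 0.4 or more, 1.90% of 105, against 0.473% of 34832031 pairs among all 8347 genes detected as widely; members share a library in each cell, and the share describes 2 pairs only. Next came Col23a1 with Col4a2 at 0.39 and with Col4a1 at 0.37, and the lowest were Itgav with Nid2 at -0.34 and Col4a1 with Itgb5 at -0.28.

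**Figure D4:**
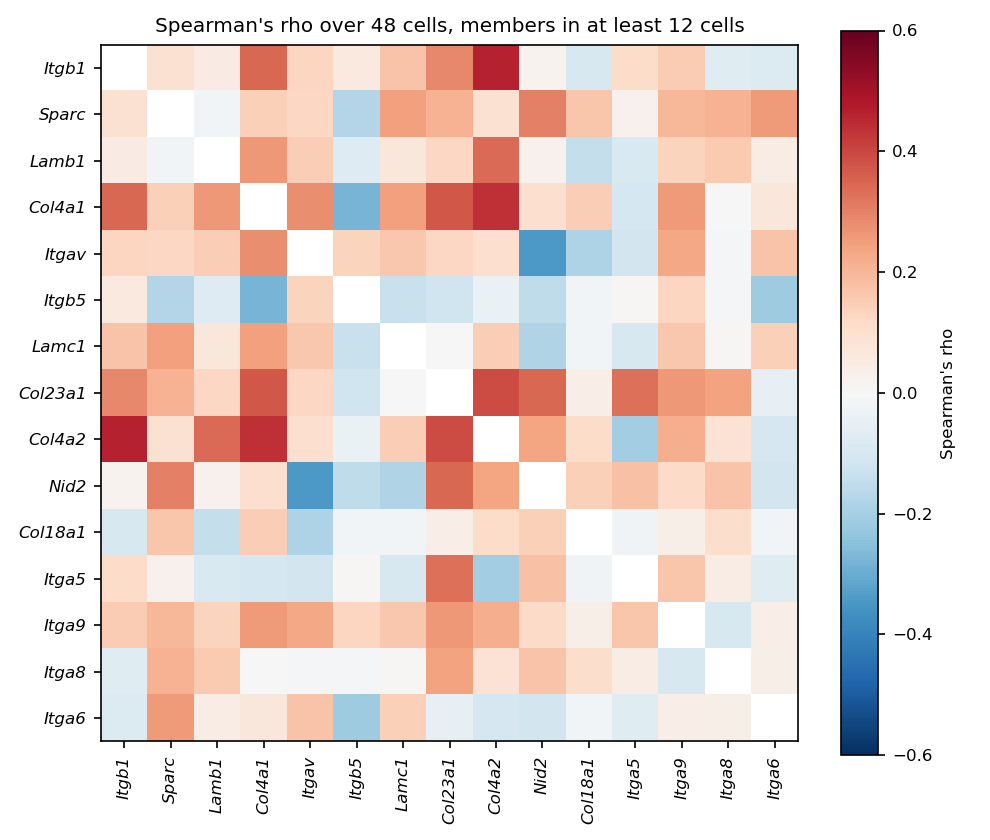
Spearman rho between each pair of the 15 members detected in at least 12 cells, over 48 cells, with red for positive and blue for negative values. Most cells of the matrix are near 0, and the pairs of Col4a2 with Itgb1 and with Col4a1 are the highest, at 0.46 and 0.44.

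For the 3 members with the largest variability for their mean, the 5 nearest genes among the 8347 are given. Members were only 15 of those 8347, so 5 places would seldom hold another member. That none did is therefore no result about the members. The genes nearest to Sparc were Nynrin with a rho of 0.53, Toe1, Otud4 and Cep152 with 0.51 and Sbds with 0.50, and the nearest member, Nid2, had 0.30 and was in place 435. Nearest to Lamb1 was Glt25d1, which encodes a galactosyltransferase that glycosylates collagen, with 0.54, then Nsmce4a with 0.53 and Fam92a with 0.51, Mtmr2 with 0.47 and Lrp10 with 0.46; Col4a2 had 0.34 and was in place 71. For Col23a1 the nearest were Tssc4 with 0.53, Sept8, Sash1 and Shq1 with 0.51 and Kifc2 with 0.50, and Col4a2, with 0.39, was in place 80. Outside that rule, and looked at because of the pairs above, Col4a2 was in place 6 for Itgb1 and in place 9 for Col4a1. The nearest genes are among the top of 8347 values over 48 cells.

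Of the 8 marker lists, the mesenchymal list had the highest correlation with the basement membrane genes, carried by part of its members. A basement membrane score, the mean of standardised log2(FPKM + 1) over the 10 components, had over 48 cells a rho of 0.49 with a score of 9 mesenchymal genes (r 0.46, 0.45 without the 2 most extreme cells), and of 0.56 and 0.55 within lower and higher cell numbers. Within the list, Twist1 had 0.42, Prrx1 0.38, Cdh11 0.33 and Zeb1 0.32, while the widely detected Vim had 0.10, Snai1 0.08, Zeb2 -0.01 and Cdh2 -0.06. With 8 genes of the endothelial and blood list rho was 0.41 (r 0.36, 0.31 without 2 cells), and 0.32 and 0.54 within numbers. Without the 7 cells with fewest genes it was 0.29. Of that list 6 of 15 genes reached 1 FPKM in no cell, among them Cdh5, which was listed at 0. With paraxial mesoderm genes rho was 0.30 (0.45 and 0.15 within numbers), with cardiac and lateral mesoderm genes 0.17 (-0.018 and 0.32), and with primitive streak genes 0.13 (0.015 and 0.26). With epithelial genes it was -0.08 (-0.17 and -0.07) and with pluripotency genes -0.29 (-0.37 and -0.15). The 8 epithelial genes in the score went both ways. Krt8 had 0.21, Krt18 0.10 and Krt19 0.10, while Cdh1 had -0.20, Cldn6 -0.25, Esrp1 -0.25, Cldn7 -0.30 and Epcam -0.35. Extraembryonic and definitive endoderm cells are strong makers of basement membrane, and the score had a rho of 0.007 with 7 endoderm genes (-0.18 and -0.05 within numbers). Of the 19 endoderm genes on that list, Afp, Hnf4a and Apoa4 were listed at 0 and Sox17 was detected in 1 cell. The summed level lay between 0.283 and 3045 FPKM with a median of 110.8 FPKM, carried most widely by Trh, in 35 cells. Also in the score were Fst in 28 cells, Cited1 in 23, Pdgfa in 18, Dab2 in 17, Foxa2 in 12 and Thbd in 7. These 7 genes went both ways with the basement membrane score. Cited1 had 0.18, Fst 0.12, Dab2 0.11 and Thbd 0.05, while Foxa2 had -0.06, Trh -0.11 and Pdgfa -0.20. With the number of genes detected, the basement membrane score had a rho of 0.12 over all cells, -0.16 in the lower and 0.55 in the higher numbers; the part of detection in these values was not tested.

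A score over 7 of the 26 integrin subunits had a rho of 0.41 with cardiac and lateral mesoderm genes (r 0.42, 0.38 without 2 cells), 0.47 and 0.39 within lower and higher cell numbers. With mesenchymal genes it had 0.37, but 0.66 in the lower and 0.09 in the higher numbers, and with epithelial genes -0.36, with -0.60 and -0.11. The integrin score also went with relative depth, at 0.36 over all cells, 0.69 in the lower and -0.07 in the higher numbers. The part of depth in these values was not tested. Single genes were set against the same lists: Itgb1 had 0.49 with paraxial mesoderm genes (r 0.43, 0.45 without 2 cells; 0.55 and 0.49 within numbers), and Sparc had 0.44 with cardiac and lateral mesoderm genes (r 0.45, 0.40 without 2 cells), but 0.17 in the lower and 0.76 in the higher numbers. In all, 6 measures were set against 8 lists, and with 48 cells of 1 sample the values are descriptions.

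**Figure D5:**
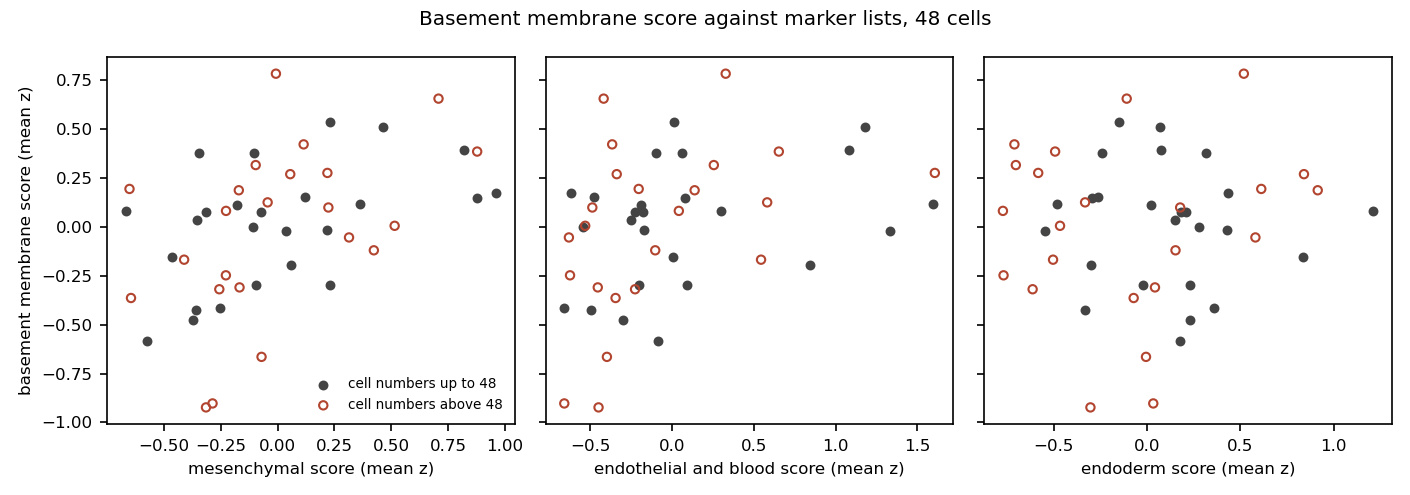
Basement membrane score of each of the 48 cells against its score on lists of mesenchymal, endothelial and blood, and endoderm genes, with 1 point per cell and both axes as means of standardised log2(FPKM + 1). The mesenchymal score rises with it, at a rho of 0.49, and the endoderm score has a rho of 0.007. Filled points are cells numbered up to 48 and open points those above.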

How the data were processed

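Single-cell RNA-seq values of 48 cells of 1 group were analysed. The authors deposited 1 table with a column per cell. Its unit is not named; the values were taken as FPKM because Cufflinks 2.2.1.0 stands in the submitters' processing notes, beside TopHat 0.7, CASAVA 1.8.2 and build mm10. For annotation, filters and strand, nothing is given in the sources. The deposit has 23746 rows; rows of 240 repeated symbols were summed, giving 23284 symbols. All 84 members stand on 1 row each and were found in GENCODE M21 (GRCm38).

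Detection was 1 FPKM or more, and logs used a pseudocount of 1 FPKM. Sets, Spearman correlations and exact 95% intervals were computed with Python 3.11.15, pandas 2.3.3, scipy 1.17.1 and statsmodels 0.14.6 (lowess span 0.4, genes of mean 5 FPKM or more detected in at least 5 cells, for variability), and the code was tested on simulated data. With no named cultures, no p-value was computed. Relative depth came from ratios of low values between cells over 2415 genes, and fragment steps were read after scaling by it. Of 99 checked values, 94.9% were whole multiples within 0.2 of a fragment. No doublet caller was run. Cells' log values correlated at most at 0.82, which is below what a library deposited a second time would give. Other thresholds, another scaling and subsets of cells were tried; counting any value above 0 was added after seeing the data. Members and lists were chosen with earlier results of these data known. Members detected in at least 12 cells are named with values, the 3 most variable for their mean with their 5 nearest genes, and the rest by counts.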

Additional observations from a re-analysis of the deposited data

How the results depend on the processing

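Of 115 alternative values for 21 results under 10 settings, 80 stayed within a tolerance, 33 moved and 2 reversed. The tolerance was the exact 95% interval of a share, which is wide with 48 cells, 0.15 for a rho and 1.5-fold for a count. Thresholds moved most. At 0.1 FPKM, 10 FPKM and any value above 0, in that order, 25, 7 and 29 members were detected in at least 12 cells (15 at 1 FPKM) and 17, 56 and 6 in no cell (32). Shares of cells, in the same order, were 56.3, 6.25 and 66.7% for both collagen IV chains (35.4%), 20.8, 0 and 33.3% for laminin-111 (6.25%), 27.1, 0 and 29.2% for laminin-511 (4.17%), 43.8, 10.4 and 47.9% for α6β1 (27.1%), 64.6, 0 and 64.6% for αvβ5 (31.3%), and 14.6, 0 and 20.8% for a laminin with its receptor (2.08%). The α5β1 share was 14.6% at 10 FPKM (37.5%), and the full basement membrane set was in 22.9% of cells at any value above 0 (0%). In the cells numbered up to 48, laminin-511 and the laminin with its receptor were at 0%, the rho of Col4a1 with Col4a2 was 0.18 (0.44), and the rho of the basement membrane score with endoderm and cardiac genes was -0.18 and -0.018 (0.007 and 0.17). In the higher numbers Col4a1 with Col4a2 had 0.61. Without the 7 cells with fewest genes the laminin with its receptor was in 0% of cells and 4 pairs reached a rho of 0.4 (2). Scaling without short RNAs put 1 member, Sparc, past 2-fold (0). The causes were not tested, beyond what a threshold or fewer cells set by construction. No paired analysis was possible because all cells belong to 1 group. Depth limits each gene differently, since 1 FPKM stood for 4.08 to 42.1 fragments.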

Other observations

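Integrin chains of blood cells and platelets were found in 3 cells, all with numbers up to 48. These were C13, C38 and C05, the last only through Itgb7 at 1.10 FPKM, just above the threshold. The chains were looked at after their values were seen. Cell C13 held the only detected Itga2b, the αIIb subunit (CD41) that also marks the first blood progenitors, at 18.9 FPKM, and the only detected Itgb2, the leukocyte β2 subunit, at 44.6 FPKM. In the same cell Gata2, a transcription factor of early blood cells, was at 152 FPKM, the highest of the 48 cells. Lmo2, at 49.0 FPKM, and Kdr, at 33.1 FPKM, were each the second highest of 48. Tal1, at 2.47 FPKM, was in place 8 and Runx1, at 1.57 FPKM, in place 10, each the lowest of the cells that detected it. Egfl7 was in place 11 at 24.2 FPKM and Etv2 in place 19 at 12.1 FPKM, while Flt1, at 0.252 FPKM, was not detected. Gata1, Cdh5, Pecam1, Tie1, Tek and the embryonic globins Hbb-bh1 and Hba-x were listed at 0 in C13. No β partner of Itga2b and no α partner of Itgb2 reached 1 FPKM in that cell, and 11 of 12 genes on a list of platelet and leukocyte markers reached 1 FPKM in none of the 48 cells. Cell C38 had Itgb7, a lymphocyte β subunit, at 18.96 FPKM, with Gata2, Lmo2, Kdr and Tal1 all listed at 0, Flt1 at 9.59 FPKM, the fourth highest of 48, and Egfl7 at 16.6 FPKM.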
